A study of Mus musculus with 24 samples.

Results

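The genes described here are a set of 41 mouse genes that interferons are known to induce, listed by gene symbol. Earlier results of these data were known when the set was chosen. Of the 41, 40 had a row among the 23364 genes of the count tables, and all 40 passed the filter on low counts and were tested. Ifi27 had no row under that symbol and was not analysed here. Every gene of the 40 was counted in every library, and the lowest count, 19, was that of Mx1.

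Interferons act through cell-surface receptors and JAK kinases. Type I interferons lead to a complex, with STAT2 and IRF9 among its parts, that binds the interferon-stimulated response element (ISRE), and interferon gamma acts through the gamma-activated site (GAS). The genes switched on in this way encode sensors of viral RNA, antiviral effectors, ubiquitin-like modifiers and GTPases that attack intracellular microbes. In the bone marrow, interferons are known to push quiescent haematopoietic stem cells into division.

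The libraries were made from RNA of 3 populations of C57BL/6 bone marrow, all sorted from lineage-negative cells that carried Kit, Sca-1 and CD150 and lacked Flt3. MPP2 progenitors were CD34-positive and CD48-positive, MPP1 progenitors were CD34-positive and CD48-negative, and haematopoietic stem cells (HSC) were negative for both. Mice were 8 to 12 weeks old and of both sexes. KO mice (Mysm1 fl/fl CreERT2, n = 3 libraries in each population) and Het mice (Mysm1 +/fl CreERT2, n = 3) all received tamoxifen, 8 injections of 0.15 mg/g over 16 days. Sham mice (Mysm1 fl, n = 2) were given the corn oil vehicle. Mysm1 is a deubiquitinase of histone H2A, and the study asked what its loss does to transcripts of these cells. CreERT2 is a Cre recombinase that tamoxifen activates, and the promoter that drives it is not given in the sources used here. Each library holds cells pooled from multiple mice, so the replicate error is that between pools.

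The 24 libraries held 18823971 to 53196624 counts. HSC KO library 1 and HSC Het library 2_3 had the fewest detected genes, 15740 and 15932, against up to 21150 in the others. Whole-gene counts of Mysm1 did not differ between KO and Het past the test (edgeR's quasi-likelihood test gave an adjusted p of 0.993 in MPP2, 0.655 in MPP1 and 0.635 in HSC), and counts over a whole gene do not show the deletion of a single exon. Not every sort gene followed its gate. Cd48 did, from 13.8 to 56.9 CPM in MPP2, against 0 to 2.02 CPM in HSC. Cd34 ran from 119 to 215 CPM in MPP1, above HSC (44.1 to 106 CPM), but overlapped with HSC in MPP2 (51.5 to 272 CPM). Ly6a, which encodes Sca-1, ran from 0.825 to 8.48 CPM in MPP2, against 16.8 to 26.7 CPM in HSC. Flt3 reached 98.0 CPM in MPP2 and 24.8 CPM in HSC. The stem cell gene Procr ran from 0.972 to 12.1 CPM in MPP2, against 40.2 to 114 CPM in HSC. Some Het and Sham libraries stood apart in genes of other blood cells. The summed CPM of 10 neutrophil genes was 3084 in MPP2 Het library 2_3 and 1159 in MPP1 Sham library 2_3. Different genes led these 2 sums. The highest level of Mpo was 2190 CPM in MPP2 and 71.8 CPM in MPP1, while that of S100a9 was 248 and 505 CPM. The summed CPM of 8 late erythroid genes was 255 in HSC Het library 1 and 131 in MPP1 Het library 1.

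Levels are given as CPM, the usual depth-scaled read count, here relative to library sizes after TMM scaling, which equalises the bulk of genes between libraries. Per kilobase of gene length, the most abundant of the 40 mRNAs was that of Eif2ak2 (PKR, a kinase switched on by double-stranded RNA), at 53.7 CPM per kb over all 24 libraries. Gbp3 and Gbp2, guanylate-binding GTPases that act on the membranes around intracellular microbes, followed at 49.5 and 38.9 CPM per kb. Dtx3l, a ubiquitin ligase, stood at 36.3 CPM per kb and Igtp, an immunity-related GTPase, at 34.2 CPM per kb. The lowest per-length levels were those of the dynamin-like GTPases Mx1 and Mx2, at 1.13 and 1.23 CPM per kb. C57BL/6 mice are known to carry a defective Mx1 allele.

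**Figure D1:**
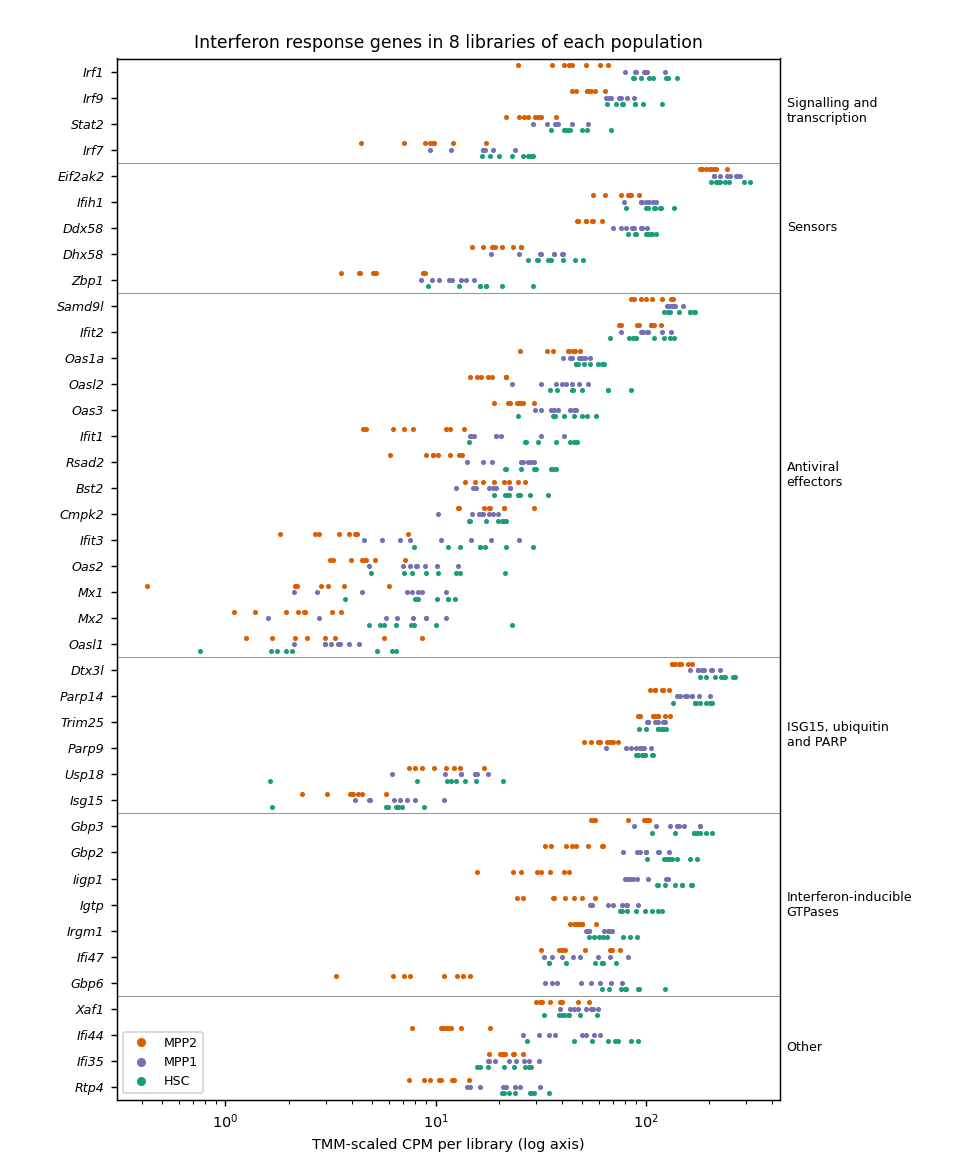
Level of each of the 40 genes, grouped by role, in the 8 libraries of MPP2, MPP1 and HSC. Each point is 1 library, the horizontal axis is TMM-scaled CPM on a log scale, and the MPP2 points lie left of the HSC points without overlap in 20 genes, among them Iigp1, Ifi44, Gbp2, Igtp and Gbp6.

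The clearest difference was between populations. MPP2 progenitors had lower relative levels of 30 of the 40 genes than HSC and of 30 of the 40 than MPP1, and 29 genes were lower against both. No member was higher in MPP2 in either comparison. Iigp1, Gbp6 and Ifi44 were the most strongly lower, at 0.208, 0.101 and 0.183 of their HSC levels, while MPP1 and HSC differed past the test in Iigp1 alone. In each comparison a population is the mean of its KO, Het and Sham groups. A bulk library cannot tell fewer cells that make an mRNA from less mRNA in each cell. CPM is relative to the rest of the library, so the amount of mRNA per cell was not measured.

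Across all 21456 genes tested, 14.2% were lower and 18% higher in MPP2 than in HSC (edgeR, Benjamini-Hochberg adjusted p under 0.05). The median log2 change of MPP2 against HSC was -0.77 over the 40 genes and -0.19 over all genes. In 38 of 40 the change was below 0, against 57.7% of all genes. In 20 of 40 every MPP2 library lay below every HSC library, against 3.98% of all genes. Against MPP1, 11% of all genes were lower and 14.4% higher in MPP2, and the median log2 change was -0.68 over the 40 genes and -0.25 over all genes. The median log2 CPM of the 40 genes ran from 4.49 to 4.80 in the 8 MPP2 libraries, from 5.08 to 5.68 in MPP1 and from 5.32 to 6.00 in HSC, so that MPP2 overlapped with neither, whereas MPP1 and HSC overlapped. By mean CPM, 31 of the 40 genes were ordered HSC, MPP1, MPP2 from high to low.

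Promoter sequence was available from RefSeq (GRCm38.p6) for 29 of the 41 genes, as windows of 250 bases before and 50 after each start site. The core of the ISRE was searched as GAAA followed by any 2 bases and a further GAAA, and the GAS as TTCNNNGAA, on both strands. The GAS pattern reads the same on either strand, and matches of the 2 patterns can overlap. An ISRE match was present in 15 of 29 members (51.7%), against 3.99% of 27025 genes with a window. A GAS match was present in 7 of 29 (24.1%), against 9.55% of those genes. Among the 20 members with a window that were lower in MPP2 than in HSC, 13 held an ISRE match and 4 a GAS match. Of the 9 that did not pass, 2 held an ISRE match and 3 a GAS match. Neither motif was present in 6 of the 20 and in 5 of the 9. A match is a description of the letters, not evidence of a bound site. The 250 bases before the start are shown for 5 members that the comparisons turn on, 5′ to 3′ on the strand of the gene, with the ISRE and GAS matches in capitals. Gbp2 (chr3:142620413-142620662, plus strand) and Rsad2 (chr12:26456453-26456702, minus strand) hold an ISRE match that ends 50 and 111 bases before the start. Igtp (chr11:58199306-58199555, plus strand) holds both motifs side by side, and Irf1 (chr11:53769764-53770013, plus strand) a GAS match. Irf1 has 2 windows with 1 GAS match in all, and the window that holds the match is the one shown. Ifi47 (chr11:49076337-49076586, plus strand), the GTPase that was not lower in MPP2, holds neither in this window. The 5 do not stand for the set. Ifi44, which was lower in MPP2, held neither motif, and Bst2, which did not pass, held both.
Gbp2: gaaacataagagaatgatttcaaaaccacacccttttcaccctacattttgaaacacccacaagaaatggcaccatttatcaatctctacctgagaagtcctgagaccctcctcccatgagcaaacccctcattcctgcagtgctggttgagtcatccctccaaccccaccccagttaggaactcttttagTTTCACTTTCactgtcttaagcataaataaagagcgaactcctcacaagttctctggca
Igtp: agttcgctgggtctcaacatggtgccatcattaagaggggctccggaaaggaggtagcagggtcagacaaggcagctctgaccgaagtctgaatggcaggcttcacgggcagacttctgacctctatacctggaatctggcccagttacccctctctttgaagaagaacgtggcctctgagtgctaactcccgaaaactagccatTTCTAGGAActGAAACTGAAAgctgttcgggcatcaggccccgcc
Rsad2: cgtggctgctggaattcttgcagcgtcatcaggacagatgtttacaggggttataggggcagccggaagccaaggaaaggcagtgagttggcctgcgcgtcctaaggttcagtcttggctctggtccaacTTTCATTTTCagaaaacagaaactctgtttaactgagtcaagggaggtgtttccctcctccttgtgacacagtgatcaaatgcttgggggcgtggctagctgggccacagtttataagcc
Irf1: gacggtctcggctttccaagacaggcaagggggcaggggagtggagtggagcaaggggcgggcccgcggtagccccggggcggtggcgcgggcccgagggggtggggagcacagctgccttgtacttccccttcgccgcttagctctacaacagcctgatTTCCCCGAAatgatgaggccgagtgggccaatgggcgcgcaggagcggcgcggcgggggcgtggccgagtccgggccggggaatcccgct
Ifi47: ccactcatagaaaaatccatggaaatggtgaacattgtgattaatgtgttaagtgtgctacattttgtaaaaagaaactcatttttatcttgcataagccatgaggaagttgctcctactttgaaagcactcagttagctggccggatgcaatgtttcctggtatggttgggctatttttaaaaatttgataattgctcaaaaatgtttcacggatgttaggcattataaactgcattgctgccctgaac

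All 4 genes of interferon signalling and transcription were lower in MPP2 than in HSC. Irf1, a transcription factor of the interferon gamma response, ran from 24.6 to 66.3 CPM in MPP2 (median 43.9), from 79.9 to 124 CPM in MPP1 (median 98.95) and from 86.6 to 142 CPM in HSC (median 106). Every MPP2 library lay below every library of both other populations. The log2 change was -1.31 ± 0.11 (SE, adjusted p = 2.9e-10) against HSC and -1.17 ± 0.11 (adjusted p = 5.49e-09) against MPP1. Irf9 and Stat2, which encode parts of the type I complex, changed by -0.66 (adjusted p = 4.86e-06) and -0.71 (adjusted p = 9.53e-05) against HSC. Exons of Irf9 overlap those of Rnf31 on the same strand, so counts of that pair may mix, here and in the comparisons below. Irf7, which amplifies the production of type I interferons, changed by -1.25 (adjusted p = 2.06e-06), with overlapping libraries.

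All 5 sensors of foreign nucleic acid were lower in MPP2 than in HSC. Ddx58 (RIG-I, a helicase that detects viral RNA) ran from 47.0 to 62.0 CPM in MPP2 (median 52.0), from 69.8 to 102 CPM in MPP1 (median 86.7) and from 82.8 to 112 CPM in HSC (median 102). The MPP2 libraries again lay below all others, at a log2 change of -0.89 ± 0.09 against HSC (adjusted p = 5.03e-09) and -0.73 ± 0.09 against MPP1 (adjusted p = 4.05e-07). Zbp1, a sensor of Z-form nucleic acid that can trigger cell death, changed by -1.65 against HSC (adjusted p = 1.55e-07). The related helicases Ifih1 (MDA5) and Dhx58 (LGP2) changed by -0.49 (adjusted p = 3.73e-04) and -0.83 (adjusted p = 3.97e-05). Eif2ak2 was the member nearest the threshold, at -0.25 (adjusted p = 0.0457).

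Of the 14 antiviral effectors, 10 were lower in MPP2 than in HSC and 4 did not pass. Rsad2 (viperin, an enzyme that makes a chain-terminating nucleotide) ran from 6.05 to 13.3 CPM in MPP2 (median 10.0), from 14.2 to 29.5 CPM in MPP1 (median 25.7) and from 21.5 to 37.4 CPM in HSC (median 29.7). It did not overlap with either population, at a log2 change of -1.50 ± 0.17 against HSC (adjusted p = 2.56e-08) and -1.18 ± 0.17 against MPP1 (adjusted p = 3.11e-06). Ifit1 and Ifit3, which bind viral RNA ends, stood at 0.251 (adjusted p = 2.43e-07) and 0.230 (adjusted p = 2.66e-06) of their HSC levels. The oligoadenylate synthetase family was lower in Oasl2 (-1.54, adjusted p = 3.88e-08), Oas3 (-0.84, adjusted p = 2.0e-05), Oas2 (-1.13, adjusted p = 3.64e-04) and Oas1a (-0.41, adjusted p = 3.63e-03). Mx1, Mx2 and Samd9l, a restriction factor, were lower too. Ifit2, at -0.04 (adjusted p = 0.832), a neighbour of Ifit1 and Ifit3 on chromosome 19, did not pass. Nor did Cmpk2, a mitochondrial nucleotide kinase that neighbours Rsad2 on chromosome 12, at 0.00 (adjusted p = 1), Oasl1 at 0.12 (adjusted p = 0.896) or Bst2 (tetherin, which holds budding virus at the cell surface) at -0.28 (adjusted p = 0.0764).

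Of the 6 genes of the ISG15, ubiquitin and PARP group, 3 were lower in MPP2 than in HSC. These were Dtx3l and its partner Parp9, at -0.63 (adjusted p = 1.44e-06) and -0.64 (adjusted p = 6.1e-07), and the ADP-ribosyltransferase Parp14, at -0.63 (adjusted p = 2.23e-06). Exons of Parp9 and Dtx3l overlap on opposite strands, and the strand setting of the authors' counting is not given in the sources used here, so their reads may not be fully separated. Isg15, the ubiquitin-like modifier itself, was at -0.61 (adjusted p = 0.0968), Usp18, which removes it and restrains the type I receptor, at -0.06 (adjusted p = 0.954), and Trim25, a ubiquitin ligase that acts on RIG-I, at -0.01 (adjusted p = 0.986). These 3 did not pass against MPP1 either.

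Of the 7 interferon-inducible GTPases, 6 were lower in MPP2 than in HSC, and the changes were the largest of any role, with a median log2 change of -1.31. Iigp1 (Irga6, which attacks the vacuole of intracellular parasites) ran from 15.8 to 43.1 CPM in MPP2 (median 31.0), from 79.9 to 128 CPM in MPP1 (median 89.1) and from 113 to 166 CPM in HSC (median 143). Gbp2 ran from 33.3 to 62.7 CPM in MPP2 (median 45.6), from 78.1 to 129 CPM in MPP1 (median 99.95) and from 102 to 176 CPM in HSC (median 132). Gbp6, of the same family as Gbp2, ran from 3.36 to 14.5 CPM in MPP2 (median 9.30), from 33.3 to 77.4 CPM in MPP1 (median 52.2) and from 62.2 to 124 CPM in HSC (median 80.4). In all 3 genes the highest MPP2 library lay below the lowest library of both other populations. The log2 changes against HSC were -2.26 ± 0.12 for Iigp1 (adjusted p = 3.55e-14), -1.55 ± 0.11 for Gbp2 (adjusted p = 1.11e-11) and -3.31 ± 0.23 for Gbp6 (adjusted p = 1.75e-09). Against MPP1 they were -1.76 ± 0.11 for Iigp1 (adjusted p = 1.93e-11), -1.17 ± 0.11 for Gbp2 (adjusted p = 4.07e-09) and -2.66 ± 0.22 for Gbp6 (adjusted p = 5.94e-08). Igtp (Irgm3) ran from 24.5 to 57.3 CPM in MPP2 (median 38.9), from 54.4 to 92.3 CPM in MPP1 (median 73.6) and from 75.9 to 119 CPM in HSC (median 94.4). Its MPP2 libraries lay below all HSC libraries (-1.31 ± 0.12, adjusted p = 5.56e-10) and overlapped with those of MPP1 (-0.90 ± 0.11, adjusted p = 7.47e-07). Gbp3 and Irgm1 were lower by smaller amounts, at -1.11 (adjusted p = 7.45e-07) and -0.48 (adjusted p = 4.07e-04). Ifi47 (Irgd) was the exception in the group, at -0.07 (adjusted p = 0.713). Members of the Gbp, Ifit, Oas and Mx families are similar in sequence and may share reads.

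Of the 4 genes with no common role, Ifi44 and the receptor chaperone Rtp4 were lower in MPP2 than in HSC. Ifi44 ran from 7.72 to 18.1 CPM in MPP2 (median 11.3), from 26.0 to 61.0 CPM in MPP1 (median 43.6) and from 27.3 to 91.8 CPM in HSC (median 68.8). The MPP2 libraries lay below all others, at a log2 change of -2.45 ± 0.15 against HSC (adjusted p = 1.43e-12) and -1.90 ± 0.15 against MPP1 (adjusted p = 2.87e-10). Rtp4 changed by -1.26 against HSC (adjusted p = 1.48e-07). Xaf1, a pro-apoptotic gene, was at -0.20 (adjusted p = 0.209) against HSC and lower against MPP1 (-0.41, adjusted p = 0.0101). Ifi35 passed in neither comparison.

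**Figure D2:**
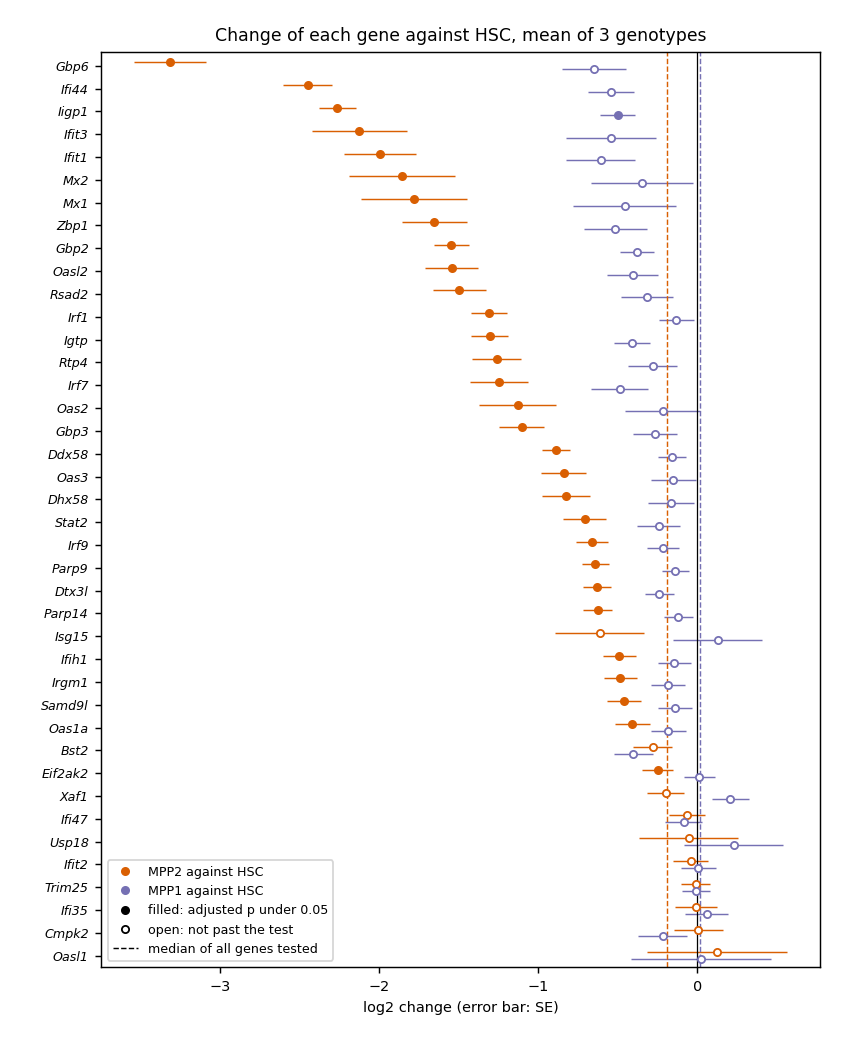
Log2 change of each gene in MPP2 and in MPP1, each against HSC, with its standard error. Filled points have an adjusted p under 0.05 and dashed lines mark the medians of all genes tested. In MPP2, 30 of 40 genes are filled and all of those lie below 0, while in MPP1 only Iigp1 is filled.

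Between MPP1 and HSC 1 of 40 genes passed. Iigp1 was lower in MPP1, by a log2 change of -0.50 ± 0.11 (adjusted p = 0.0236), where 0.103% of all genes were lower and 0.941% higher. Its libraries overlapped, from 79.9 to 128 CPM in MPP1, against 113 to 166 CPM in HSC. Ifi44 was at -0.55 ± 0.15 (adjusted p = 0.06), Igtp at -0.41 ± 0.11 (adjusted p = 0.0797) and Gbp2 at -0.38 ± 0.11 (adjusted p = 0.0853). At an unadjusted p under 0.05, 12 of 40 were lower and 0 higher, against 2.94% and 7.76% of all genes. The median log2 change was -0.22 over the 40 genes and 0.02 over all genes. The count was 0 when HSC KO library 4, HSC Sham library 2_3, MPP1 KO library 1, MPP1 Het library 1 or MPP1 Sham library 4 was left out. It was 2 without HSC Het library 1 or MPP1 KO library 4, 3 without HSC KO library 1 and 5 without MPP1 Het library 2_3.

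The lower level in MPP2 was seen within each genotype. Among KO libraries 22 of 40 genes were lower in MPP2 than in HSC, where 2.65% of all genes were lower. Among Het libraries the count was 30 of 40, where 8.37% of all genes were lower, and among Sham libraries 19 of 40, where 7.69% were lower. No member was higher in MPP2 in any genotype. Against MPP1 the counts were 11 among KO, 16 among Het and 17 among Sham libraries, where 0.769%, 4.26% and 5.78% of all genes were lower.

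Some markers of other cells also moved with the populations. Plasmacytoid dendritic cells are strong producers of interferon, and all 8 of 8 genes listed for them were found. Their summed level ran from 94.0 to 123 CPM in MPP2, against 107 to 161 CPM in HSC, and most of it came from Tcf4, at 76.9 to 96.3 CPM in MPP2 and 93.3 to 124 CPM in HSC. The more specific Siglech ran from 7.35 to 27.7 CPM in MPP2, against 8.09 to 40.5 CPM in HSC, and Cox6a2 and Cd209d stayed below 1 CPM in every library. The summed level of the 8 late erythroid genes ran from 154 to 998 CPM in MPP2, against 5.65 to 255 CPM in HSC. Hba-a1 and Hba-a2 were at 0 in every library, and Car1 and Ermap made up most of the sum in MPP2. The 14 immediate early and stress genes summed to 97.8 to 203 CPM in MPP2, against 171 to 250 CPM in HSC. The 14 stem and progenitor genes, the sort genes Kit, Cd34, Cd48, Flt3 and Ly6a among them, summed to 1095 to 1595 CPM in MPP2, against 2042 to 2954 CPM in HSC. Kit and Meis1 had the highest medians, at 526 and 323 CPM in MPP2 and 806 and 433 CPM in HSC. Cd34 and Cd48 went the other way, with medians of 141 and 27.3 CPM in MPP2, against 79.0 and 0.914 CPM in HSC. The part of these cells, of the stem cell programme or of handling stress in the lower interferon response levels was not tested.

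The loss of Mysm1 was addressed by KO against Het, since both groups received tamoxifen. In none of the 3 populations did a member pass the test (0 of 40 in MPP2, MPP1 and HSC), where 0.415%, 0.0559% and 0.615% of all genes passed. DESeq2 passed 2 (Ifi47 and Bst2), 0 and 1 (Ifi44). The shares of all genes that DESeq2 passed are not given for any comparison, and the edgeR shares do not stand in for them. At an unadjusted p under 0.05 there were 11 of 40 in MPP2 (7 higher, 4 lower), 6 in MPP1 (4 higher, 2 lower) and 5 in HSC (1 higher, 4 lower), against 5.63%, 8.67% and 14.5% of all genes. The median log2 change of KO against Het was 0.05 over the 40 genes in MPP2, against -0.06 over all genes, 0.03 against -0.11 in MPP1, and -0.11 against 0.03 in HSC. The sign of these medians changed with the setting, to -0.02 in MPP1 with RLE scaling or DESeq2, to -0.02 in MPP2 with the authors' normalized matrix and to 0.02 in HSC with Het and Sham together as control. A change that misses the test is not shown to be absent, since with 3 libraries in each group the smallest standard error of a log2 change among these genes was 0.138.

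**Figure D3:**
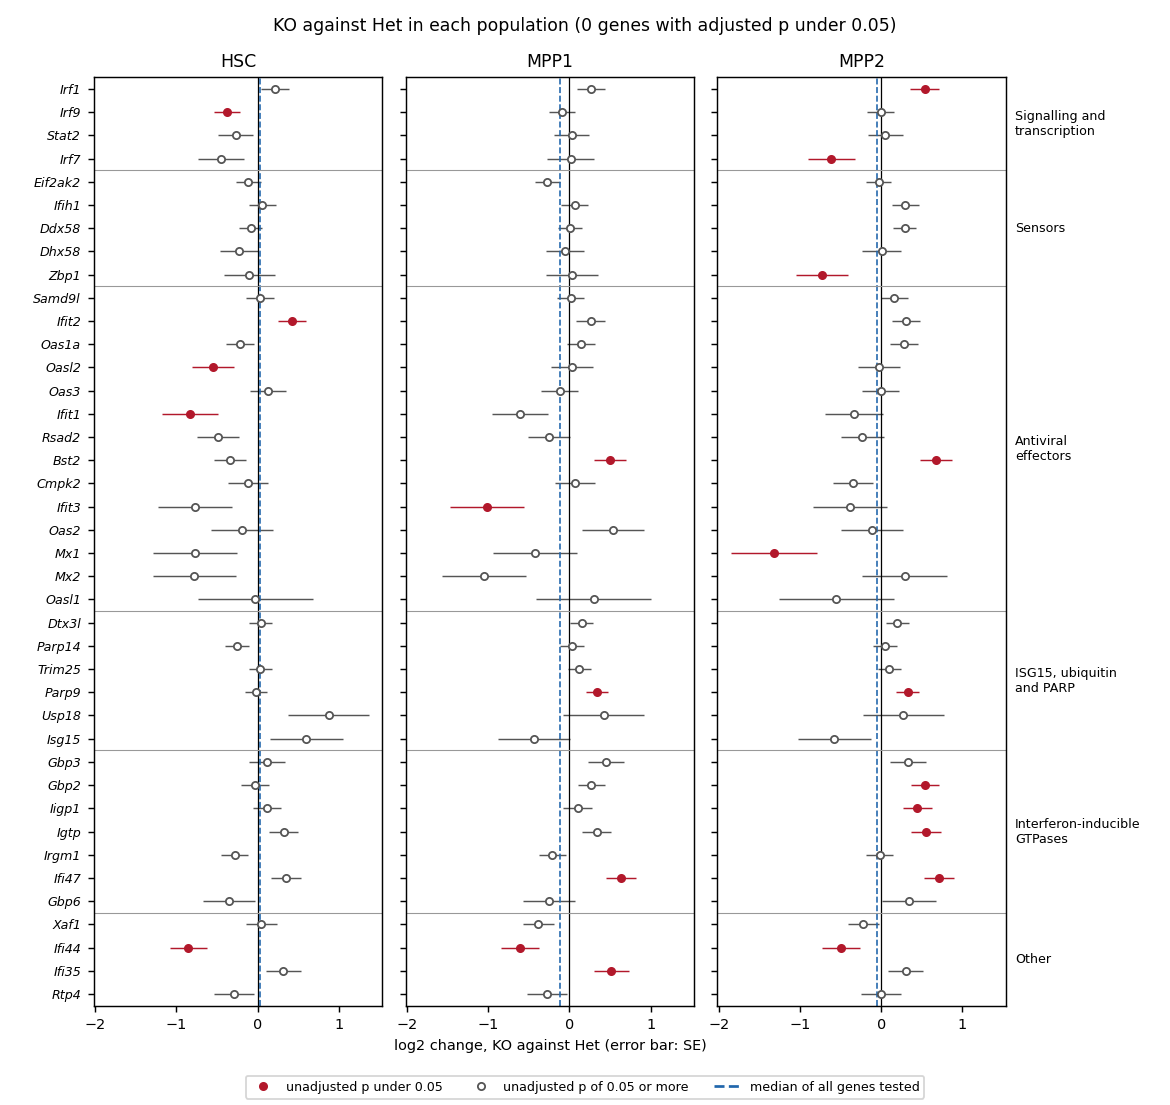
Log2 change of KO against Het in HSC, MPP1 and MPP2 for each gene, grouped by role, with its standard error. Red points have an unadjusted p under 0.05, open points do not, and the dashed blue line is the median of all genes. In MPP2 the points of the GTPases lie mostly right of 0, with a median of 0.44, while 0 of 40 genes pass after adjustment in any population.

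In MPP2, Ifi47, an immunity-related GTPase, stood at 75.6, 69.0 and 67.8 CPM in KO, against 51.5, 38.6 and 40.0 CPM in Het. Bst2 stood at 26.6, 22.4 and 24.8 CPM in KO, against 13.8, 15.5 and 16.8 CPM in Het. Gbp2 stood at 52.9, 61.8 and 62.7 CPM in KO, against 35.3, 41.7 and 44.7 CPM in Het. In all 3 genes each KO library lay above each Het library. The 2 Sham libraries of Bst2, at 19.1 and 21.1 CPM, also lay above Het. The log2 changes were 0.71 ± 0.18 for Ifi47 (adjusted p = 0.105), 0.68 ± 0.20 for Bst2 (adjusted p = 0.197) and 0.54 ± 0.17 for Gbp2 (adjusted p = 0.322). Igtp, with 49.9, 45.5 and 57.3 CPM in KO, against 41.1, 26.2 and 36.7 CPM in Het, was at 0.55 ± 0.18 (adjusted p = 0.363), again without overlap. KO libraries lay above Het libraries without overlap in 10 of 40 genes and below in 3, against 9.06% and 5.6% of all genes. Among those 10 were 4 of the 7 GTPases, and the median log2 change of the GTPases was 0.44, from -0.02 to 0.71. Ifi47 passed under DESeq2 (adjusted p = 0.0446) and in a fit of MPP2 libraries alone (adjusted p = 0.0419), within 0.00482 to 0.551 over 15 alternatives. Exons of Ifi47 (mm9, chromosome 11, 48890089 to 48910476) overlap those of Olfr56 on the same strand, so counts of the pair may mix.

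In MPP1, Ifi47 stood at 82.1, 67.5 and 59.6 CPM in KO, against 48.9, 45.3 and 40.1 CPM in Het. Bst2 stood at 22.6, 18.7 and 19.4 CPM in KO, against 12.5, 15.6 and 15.02 CPM in Het. Both were without overlap and above Het, as in MPP2, at 0.64 ± 0.18 for Ifi47 (adjusted p = 0.26) and 0.50 ± 0.20 for Bst2 (adjusted p = 0.519). Parp9 stood at 97.9, 93.8 and 106 CPM in KO, against 64.9, 80.6 and 89.8 CPM in Het (0.34 ± 0.14, adjusted p = 0.534). Ifi44 stood at 26.0, 31.1 and 37.2 CPM in KO, against 34.6, 56.5 and 52.2 CPM in Het, with overlap (-0.61 ± 0.23, adjusted p = 0.501). KO lay above Het without overlap in 5 of 40 genes and below in 3, against 8.49% and 13.2% of all genes.

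In HSC none of the members passed between KO and Het, and the genes with the smallest p mostly had negative log2 changes. Ifi44 (mm9, chromosome 3, 151393886 to 151412911) stood at 27.3, 45.4 and 55.7 CPM in KO, against 73.8, 91.8 and 66.4 CPM in Het. Ifit1 stood at 14.4, 26.6 and 27.0 CPM in KO, against 30.6, 47.1 and 43.7 CPM in Het. In both genes every KO library lay below every Het library, at -0.85 ± 0.23 for Ifi44 (adjusted p = 0.0743) and -0.83 ± 0.35 for Ifit1 (adjusted p = 0.271). Irf9 stood at 65.3, 71.9 and 89.3 CPM in KO, against 77.9, 119 and 97.5 CPM in Het (-0.38 ± 0.16, adjusted p = 0.279). Ifit2 had a positive log2 change, at 130.2, 109.7 and 136 CPM in KO, against 90.4, 67.4 and 122 CPM in Het (0.43 ± 0.18, adjusted p = 0.258). Irf9 and Ifit2 overlapped between the groups. KO lay below Het without overlap in 7 of 40 genes and above in 1, against 4.48% and 7.16% of all genes. Ifi44 passed under 6 of 15 alternatives, among them DESeq2 (adjusted p = 0.0312), within 0.00359 to 0.759. Without HSC KO library 4 its change was -1.09 (adjusted p = 0.0441). Without the 2 libraries of few detected genes, which held its lowest KO and its highest Het value, the change was -0.47 (adjusted p = 0.759).

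Marker levels moved with these groups as well. In MPP2 the stem and progenitor genes summed to 1595, 1464 and 1405 CPM in KO, against 1258, 1323 and 1155 CPM in Het, without overlap, and this sum is higher in HSC, as are the levels of most GTPases. The stem cell factor Mecom alone stood at 81.6, 90.1 and 68.4 CPM in KO, against 36.8, 50.1 and 35.95 CPM in Het. In MPP2 the late erythroid genes summed to 154, 189 and 301 CPM in KO, against 618, 400 and 444 CPM in Het, and the neutrophil genes to 92.2 to 152 CPM in KO, against 185 to 3084 CPM in Het. In MPP1 the late erythroid genes summed to 7.75 to 13.2 CPM in KO, against 24.2 to 131 CPM in Het, and 7 B cell genes to 10.1 to 12.4 CPM in KO, against 13.8 to 18.2 CPM in Het. Most of the B cell sum came from Cd79b, with a median of 9.55 CPM over the MPP1 libraries. In HSC the late erythroid genes summed to 5.65 to 17.3 CPM in KO, against 14.1 to 255 CPM in Het, and the immediate early and stress genes to 171 to 250 CPM in KO, against 201 to 245 CPM in Het. The plasmacytoid dendritic list overlapped between the groups, at 97.8 to 123 CPM in KO and 99.4 to 109 CPM in Het in MPP2. The part of these in the values of the interferon response genes was not tested.

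**Figure D4:**
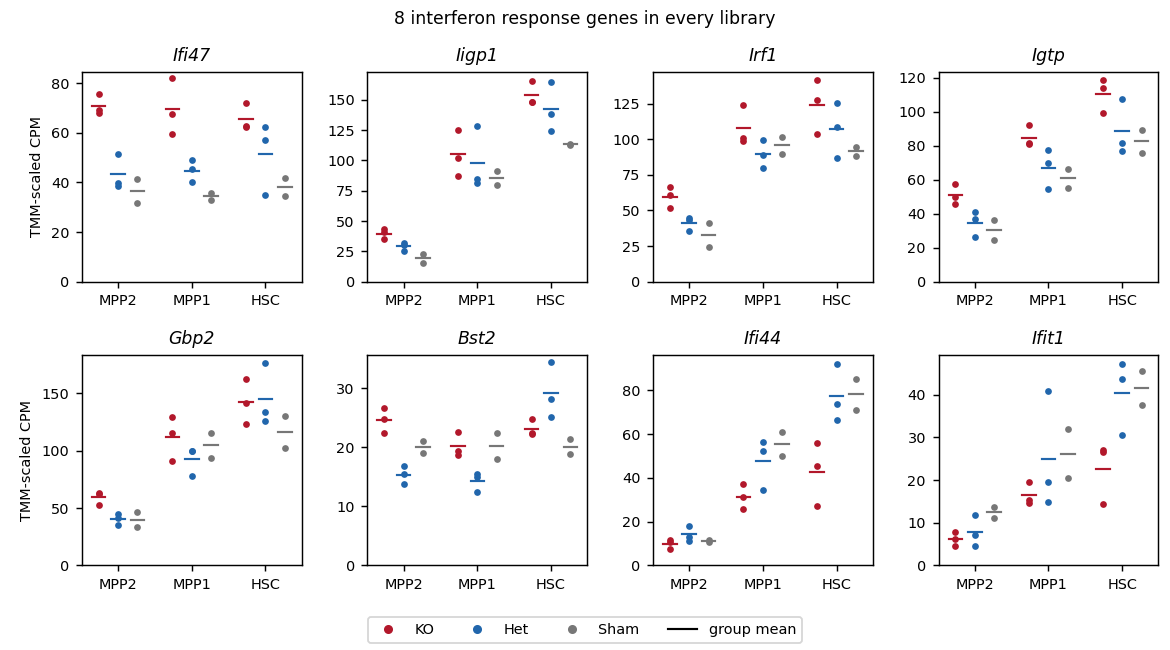
TMM-scaled CPM of 8 interferon response genes in every library of KO, Het and Sham, in MPP2, MPP1 and HSC. Each point is 1 library and the bar is the group mean. The MPP2 libraries of Iigp1, Irf1, Gbp2 and Ifi44 lie below the other populations, and the KO libraries of Ifi47 lie above the Het and Sham libraries in every population, by a small margin in HSC.

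KO against Sham compares mice that differ in the Mysm1 alleles, in tamoxifen and, by the labels, in CreERT2, which cannot be told apart. It uses the same KO libraries as KO against Het, so the 2 comparisons are not independent. In MPP2, 3 of 40 genes rose in KO and 0 fell, where 0.489% and 0.14% of all genes did. In MPP1 and in HSC 1 rose, Ifi47 in each case, where 0.0792% and 1.9% of all genes rose. In both 0 fell, where 0.0419% and 0.382% of all genes did.

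In MPP2, Iigp1 stood at 34.9, 40.97 and 43.1 CPM in KO, against 15.8 and 23.3 CPM in Sham. Ifi47 stood at 75.6, 69.0 and 67.8 CPM in KO, against 31.8 and 41.3 CPM in Sham. Irf1 stood at 66.3, 51.8 and 60.5 CPM in KO, against 24.6 and 40.98 CPM in Sham. The groups did not overlap in any of the 3 genes. Iigp1 rose by 1.02 ± 0.21 on the log2 scale (adjusted p = 0.0103), Ifi47 by 0.96 ± 0.21 (adjusted p = 0.0204) and Irf1 by 0.86 ± 0.20 (adjusted p = 0.0364). Without MPP2 Sham library 2_3, the lower of the pair in all 3 genes, 0 of 40 passed, and Iigp1 was then at 0.77. Without MPP2 KO library 1 only Iigp1 passed. KO lay above Sham without overlap in 6 of the 7 GTPases, against 13.6% of all genes, and their median log2 change was 0.82, against 0.10 over all genes. The set of 40 did not rise as a whole, with a median log2 change of 0.03. Over the 40, KO lay above Sham without overlap in 11 and below in 7. The share of all genes that lay below is not given here. The antiviral effectors had a median of -0.21 in the same comparison. The late erythroid genes summed to 154 to 301 CPM in KO MPP2, against 429.5 to 998 CPM in Sham, and the immediate early and stress genes to 97.8 to 156 CPM in KO, against 174 to 203 CPM in Sham. The stem and progenitor genes summed to 1405 to 1595 CPM in KO, against 1095 to 1262 CPM in Sham, above Sham without overlap like the 3 genes that rose. The plasmacytoid dendritic genes summed to 97.8 to 123 CPM in KO, against 94.0 to 96.9 CPM in Sham, and the neutrophil genes to 92.2 to 152 CPM in KO, against 204 to 280.0 CPM in Sham. The sum of 8 T and NK cell genes was 32.1 to 40.5 CPM in KO, against 23.6 to 28.9 CPM in Sham. Most of that sum came from Nkg7, with a median of 21.4 CPM over the MPP2 libraries. The part of these marker lists in the values was not tested.

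In MPP1, Ifi47 stood at 82.1, 67.5 and 59.6 CPM in KO, against 35.8 and 32.9 CPM in Sham, and rose by 1.02 ± 0.21 (adjusted p = 0.0352). In HSC it stood at 71.9, 62.6 and 62.2 CPM in KO, against 41.7 and 34.5 CPM in Sham, and rose by 0.78 ± 0.21 (adjusted p = 0.041). The groups did not overlap in either population. Both calls were lost with another scaling of the libraries (RLE) or without the filter on low counts. The MPP1 call was also lost without KO library 1 or 2_3 or either Sham library. That in HSC was lost without KO library 1 or either Sham library, and without KO library 4 there were 2 calls. The next genes in HSC were Ifi44, with 27.3, 45.4 and 55.7 CPM in KO, against 71.2 and 85.0 CPM in Sham (-0.87 ± 0.26, adjusted p = 0.0632), Ifit2 (0.56 ± 0.20, adjusted p = 0.135) and Ifit1 (-0.87 ± 0.38, adjusted p = 0.273). Those in MPP1 were Ifi44, with 26.0, 31.1 and 37.2 CPM in KO, against 61.0 and 50.0 CPM in Sham (-0.82 ± 0.26, adjusted p = 0.22), Rtp4 (-0.76 ± 0.27, adjusted p = 0.278) and Ifit3 (-1.33 ± 0.50, adjusted p = 0.33). Ifi44 was without overlap below Sham in both populations. Markers separated these groups too. In MPP1 the late erythroid genes summed to 7.75 to 13.2 CPM in KO, against 14.6 to 22.7 CPM in Sham, the immediate early and stress genes to 145 to 212 CPM in KO, against 231 CPM in both Sham libraries, and the stem and progenitor genes to 1924 to 2071 CPM in KO, against 2136 to 2209 CPM in Sham. In HSC the stem and progenitor genes summed to 2042 to 2266 CPM in KO, against 2336 to 2625 CPM in Sham, and 10 monocyte and macrophage genes to 18.4 to 28.0 CPM in KO, against 14.5 to 16.3 CPM in Sham. Their part in the values of Ifi47 and Ifi44 was not tested.

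Het against Sham passed 0 of 40 genes in each population, and 0% of all genes passed. The unadjusted p was under 0.05 for 5 of 40 in MPP2, 1 in MPP1 and 3 in HSC, against 5.32%, 0.965% and 6.92% of all genes, and DESeq2 passed 0 in each. Iigp1 in MPP2, at 31.7, 25.5 and 30.4 CPM in Het, against 15.8 and 23.3 CPM in Sham, had the smallest p there (0.58 ± 0.20, adjusted p = 0.773). Bst2 had the smallest p in MPP1, at 12.5, 15.6 and 15.02 CPM in Het, against 22.5 and 18.0 CPM in Sham (-0.50 ± 0.22, adjusted p = 1). In HSC the smallest was that of Oas2, at 10.3, 21.4 and 7.72 CPM in Het, against 7.09 and 4.95 CPM in Sham (1.13 ± 0.44, adjusted p = 0.714). Those 3 genes did not overlap between Het and Sham. The next were Gbp6 (1.02), Xaf1 (0.51) and Oas1a (-0.48) in MPP2 and Bst2 (0.54) in HSC, with adjusted p of 0.773 for the MPP2 genes and 0.718 for Bst2.

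Whether the difference of KO from Het itself changed between populations was tested as an interaction. It passed for 0 of 40 genes in each of the 3 pairs of populations, where 0.0326% of all genes passed between MPP2 and HSC and 0% in the other pairs. The unadjusted p was under 0.05 for 2 genes between MPP2 and HSC, 1 between MPP1 and HSC and 0 between MPP2 and MPP1, against 7.29%, 4.87% and 2.39% of all genes. Bst2 had the smallest p in both pairs with HSC. Its KO libraries all lay above Het in MPP2, while in HSC it stood at 24.8, 22.2 and 22.4 CPM in KO, against 28.2, 25.1 and 34.5 CPM in Het, with every KO library below. The difference of the changes was 1.02 ± 0.28 between MPP2 and HSC (adjusted p = 0.27) and 0.84 ± 0.28 between MPP1 and HSC (adjusted p = 0.988). DESeq2 passed Bst2 between MPP2 and HSC (adjusted p = 0.0165, within 0.0165 to 0.759 over 20 alternatives) and 0 genes in the other pairs. Gbp2 followed between MPP2 and HSC, at 0.57 ± 0.24 (adjusted p = 0.615).

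The upstream parts of the pathway were read from 40 further genes of ligands, receptors, kinases, factors, inhibitors and sensing. The mean level of Ifna1 was 0.868 CPM in MPP2, 1.08 CPM in MPP1 and 1.13 CPM in HSC, and those of the interferon genes Ifnb1, Ifna2, Ifna4, Ifng, Ifnl2 and Ifnl3 lay below 1 CPM in each. In MPP2 against HSC 3 of the 40 were higher and 14 lower, where 18% and 14.2% of all genes were, and against MPP1 2 were higher and 9 lower, where 14.4% and 11% were. Their median log2 change against HSC was -0.36. MPP1 against HSC passed 0 of 40, with 2 higher and 3 lower at an unadjusted p under 0.05, against 7.76% and 2.94% of all genes. Ifngr1, the ligand-binding chain of the interferon gamma receptor, averaged 209 ± 91.1 CPM in MPP2 and 96.8 ± 18.6 CPM in HSC (SD, n = 8 each) and was higher by 1.13 ± 0.12 (adjusted p = 7.09e-09). Ciita, the transactivator of MHC class II genes, averaged 2.80 ± 1.52 CPM in MPP2 and 13.1 ± 4.82 CPM in HSC (-2.35 ± 0.26, adjusted p = 2.8e-08). Samhd1, a restriction factor that depletes nucleotides, and Irf2, a factor that binds the ISRE, were lower by log2 changes of -0.70 (adjusted p = 9.14e-08) and -0.88 (adjusted p = 2.41e-07). The type I receptor chain Ifnar1 was lower (-0.76, adjusted p = 0.0142), while Ifnar2 was at 0.01 (adjusted p = 1) and the kinases Jak1, Jak2 and Tyk2 did not pass.

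For KO against Het the same 40 genes gave 1 lower gene in MPP2, where 0.415% of all genes passed in either direction, and 0 in MPP1 and HSC, where 0.0559% and 0.615% did. At an unadjusted p under 0.05 there were 6 of 40 in MPP2, 4 in MPP1 and 3 in HSC, against 5.63%, 8.67% and 14.5% of all genes. That gene was Irf8, a factor of myeloid cells, at 2.14, 3.15 and 3.93 CPM in KO, against 12.1, 52.7 and 4.65 CPM in Het (-2.91 ± 0.65, adjusted p = 0.0382). The highest of the Het values was that of library 2_3, the library with the high neutrophil sum. Ifnar1 and Ifnar2 did not pass, with Ifnar1 between -0.56 and -0.10 over the populations. Ifngr1 was at -0.52 ± 0.18 in MPP2 (adjusted p = 0.483). Against Sham, Ifngr1 fell in KO MPP2, with 141 ± 36.3 CPM in KO (n = 3) and 321 ± 122 CPM in Sham (n = 2), by 1.18 ± 0.20 on the log2 scale (adjusted p = 0.00222), the opposite direction to that of Iigp1 and Irf1.

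A second list held 37 other interferon-induced genes, of which 36 were tested. In MPP2 against HSC 22 were lower and 2 higher, where 14.2% and 18% of all genes were, and against MPP1 21 were lower and 2 higher, where 11% and 14.4% were. Their median log2 change against HSC was -0.43. The lowest p values were those of the GTPase Irgm2, with 31.8 ± 7.81 CPM in MPP2 and 102 ± 15.3 CPM in HSC (-1.75 ± 0.11, adjusted p = 6.66e-13), and of Uba7, the enzyme that activates ISG15, with 78.4 ± 12.1 CPM in MPP2 and 199 ± 27.0 CPM in HSC (-1.36 ± 0.10, adjusted p = 1.28e-11). Gbp4 was lower at -3.92 (adjusted p = 2.93e-11), and Ly6a, which encodes the Sca-1 antigen of the sort gate, at -3.01 (adjusted p = 1.82e-09). The higher genes were Ifi30, a lysosomal thiol reductase, at 2.09 (adjusted p = 5.98e-07), and the lectin Lgals9, at 1.07 (adjusted p = 3.35e-05). In MPP1 against HSC Gbp4 (-1.01, adjusted p = 0.0231) and Irgm2 (-0.42, adjusted p = 0.0368) were lower and 0 were higher, where 0.103% and 0.941% of all genes were.

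For KO against Het the second list gave 1 lower gene, the membrane protein Ifitm1 in HSC, with 33.3 ± 10.5 CPM in KO and 122 ± 29.4 CPM in Het (-1.87 ± 0.36, adjusted p = 0.0254), and 0 in MPP2 and MPP1, where 0.615%, 0.415% and 0.0559% of all genes passed in HSC, MPP2 and MPP1. At an unadjusted p under 0.05 there were 10 of 36 in MPP2 (10 higher, 0 lower), 7 in MPP1 (5 higher, 2 lower) and 9 in HSC (3 higher, 6 lower). The shares of all genes were 5.63%, 8.67% and 14.5%. The median log2 change over the 36 genes was 0.23 in MPP2, against -0.06 over all genes, 0.05 against -0.11 in MPP1, and 0.03 against 0.03 in HSC. In MPP2 the change was above 0 in 30 of the 36 and below 0 in 6. For KO against Sham it gave 3 higher in MPP2, where 0.489% of all genes were, 0 in MPP1, where 0.0792% were higher and 0.0419% lower, and 2 higher and 1 lower in HSC, where 1.9% and 0.382% were. In MPP2 these were Ifi203, a DNA-binding PYHIN protein (1.10 ± 0.17, adjusted p = 0.00114), Ly6a (2.43 ± 0.49, adjusted p = 0.0128) and Irgm2 (0.81 ± 0.19, adjusted p = 0.0356). Those higher in HSC were Tap1 (0.72 ± 0.16, adjusted p = 0.0175) and Psmb9 (0.78 ± 0.20, adjusted p = 0.0354), which supply peptides to MHC class I, and the lower was Ifitm1 (-2.08 ± 0.39, adjusted p = 0.0111).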

How the data were processed

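Whole-number counts per gene were deposited by the authors for each of the 24 libraries, beside a gene length. The submitters' processing notes name TopHat2 2.0.9 and Bowtie 1.0.0, Trimmomatic 0.33 and FastQC, featureCounts, R 3.1.2 with edgeR, and the build mm9; their settings, the annotation and the counting strand are not given in the sources used here. Per the labels' protocols, libraries were rRNA-depleted, stranded and read as pairs of 50 bases. A matrix of normalized signal, scaled by the authors in a way that is not stated, served only as an alternative with limma 3.58.1.

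Counts were fitted in edgeR 4.0.16 (R 4.3.3) with 1 model of 9 groups, TMM scaling, genes kept by filterByExpr (least count 10) and the robust quasi-likelihood test, two-sided. The Benjamini-Hochberg adjustment covered the 21456 tested genes, and calls were made under 0.05. Standard errors were taken as log2 change over the root of the F statistic. The log2 CPM values of single libraries use a prior count of 2, which the fitted log2 changes do not. Library totals ran from 18823971 to 53196624 counts. The labels number the replicates 1, 2_3 and 4, but same-numbered KO and Het libraries deviated together in 2 of 9 correlations over 0.1 (from -0.338 to 0.33), and same-numbered libraries of different populations in 7 of 18 (from -0.0292 to 0.505). Of those 7, 6 were KO libraries 1 and 2_3, at 0.199 to 0.505. Since not every correlation passed 0.1 in either case, the numbers were not taken as pairs. The p-values set each difference against the spread between these pooled samples. Those between populations take all libraries as independent, though KO libraries 1 and 2_3 deviated together. The fit was tested on simulated counts.

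The genes and lists were chosen with earlier results of these data known. Values by library are given for up to 8 genes past the threshold in a comparison and otherwise for the 4 of smallest p; a ranking of genes by likeness of pattern was not used, and 1 gene of the pathway list is not reported here by name. Alternatives were RLE scaling, no filter, DESeq2 1.42.0, fits within populations, a replicate block, Het with Sham as control, Het groups only, and leaving out single libraries, the 2 with few detected genes, or 3 Het libraries that stand apart in marker genes, the last chosen after seeing the data.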

Additional observations from a re-analysis of the deposited data

How the results depend on the processing

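The lower level in MPP2 held under every alternative run: the count of genes lower than in HSC stayed between 29 and 32 as single libraries were left out, and 29 of the 30 genes were lower in every setting, Eif2ak2 being the exception. Against MPP1 the count was 25 to 30 without single libraries and 16 in Het groups only, and 16 genes were lower in every setting.

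Small counts moved. MPP1 against HSC passed 1 gene and gave 6 with DESeq2, 6 with the deposited matrix in limma, 2 without the 2 HSC libraries of few detected genes, 0 in Het groups only and 0 to 5 without single libraries. KO against Het in HSC passed 0 and gave 1 with DESeq2, 1 with the deposited matrix, 2 with Het and Sham together as control, 1 without the 3 Het libraries that stand apart and 0 to 1 without single libraries. In MPP1 it gave 1 with Het and Sham together and 0 without any single library. In MPP2 it gave 2 with DESeq2, 1 in MPP2 libraries alone, 4 with Het and Sham together and 0 without any single library. The median log2 change of KO against Het ran without single libraries from -0.13 to -0.03 in HSC, from -0.07 to 0.14 in MPP1 and from -0.00395 to 0.14 in MPP2, where it was -0.0167 with the deposited matrix and 0.12 without the 3 Het libraries. Its sign also turned in MPP1, to -0.02 with RLE scaling, DESeq2 or Het and Sham together, -0.08 with the deposited matrix and -0.04 without the 3 Het libraries, and in HSC, to 0.02 with Het and Sham together. KO against Sham in HSC passed 1 and gave 0 with RLE scaling, 0 without the filter, 2 with DESeq2, 0 in HSC libraries alone, 0 without the 2 libraries of few genes, 2 without the 3 Het libraries and 0 to 2 without single libraries. In MPP1 it gave 0 with RLE scaling, 0 without the filter and 0 to 1 without single libraries. In MPP2 it passed 3, with 5 without the 3 Het libraries and 0 to 3 without single libraries. Het against Sham stayed at 0 throughout, and the interaction between MPP2 and HSC gave 1 with DESeq2 and 0 without any single library. Why these counts moved was not tested. The share of all genes called under each alternative is not given in this section. The counts therefore do not show whether the members moved more than other genes.

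With the replicate block, KO against Het in HSC gave 2 genes, Ifi44 (-0.91, adjusted p = 0.00359) and Ifit1 (-0.86, adjusted p = 0.0278), KO against Sham in HSC gave 2, and MPP1 against HSC gave 6. Same-numbered libraries did not all deviate together, so the block is given as an alternative alone.

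Depth bears most on genes of low count, and the lowest count of the 40 genes in a library was 19, for Mx1.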
